A study of Mus musculus with 2 samples.

Results

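The interferon-stimulated and antigen presentation genes were followed in the cerebellum of mice that lack Prdm16 conditionally. The 34 genes were fixed by name, and all 34 had a row among the 22423 genes of the count table. They comprise 29 genes induced by interferon and 5 that act in antigen presentation by MHC class I. The cKO library came from a Prdm16 cKO mouse at postnatal day 3 and its control from a Prdm16fl/fl mouse of the same age, both labelled C57BL/6 and sequenced from total RNA of dissected cerebellum. Neither the Cre driver nor the exons removed are named in the labels, so which cells lost Prdm16 is not given. Triplicates are mentioned in the series design, yet the table has 1 column of read counts per genotype, and each was treated as 1 library. No difference below has a replicate check, and the intervals cover counting error alone.

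The cKO library held 17501279 reads over genes and the control library 18600299. Prdm16, the targeted gene, had 118 reads in the cKO and 315 in the control, a log2 ratio of -1.30 with a 95% counting interval of -1.62 to -0.99. The libraries also differed in ways that the genotype labels do not name. Xist had 21 reads in the cKO and 14779 in the control, and 4 Y-linked genes summed to 2352 reads in the cKO and 7 in the control, so sex pattern and genotype cannot be told apart. Choroid plexus markers summed to 189 CPM in the cKO and 6088 CPM in the control. CPM, or counts per 1e6 reads, is given here after TMM scaling, which corrects each library total for a few dominant genes. Markers of granule neuron progenitors, which multiply at the cerebellar surface at this age, were abundant in both libraries, with summed levels of 2633 CPM in the cKO and 2391 CPM in the control. Among them the transcription factor gene Atoh1 had the highest log2 ratio, with 789 cKO and 560 control reads (0.61, 0.45 to 0.77), and Zic2 had the lowest (-0.02, -0.06 to 0.03).

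Interferons are secreted proteins that warn cells of infection. Type I interferons bind the Ifnar1 and Ifnar2 receptor, whose kinases phosphorylate Stat2 among other factors. Stat2 joins Irf9 in a complex that binds a DNA element, the interferon-stimulated response element, before antiviral genes. A low tonic signal keeps some of these genes on without infection, and in the brain they are known to be expressed by microglia and vessel cells among others. MHC class I molecules, which need B2m to reach the cell surface, present peptides cut by the proteasome and carried by the Tap1 and Tap2 transporter.

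As a whole the genes stood slightly lower in the cKO library. The lowest ratios came from scarce transcripts, and some better covered genes, such as Lgals3bp, Trim25 and Bst2, were lower by less than 2-fold. For 21 of the 34 genes the interval held 0. Ifit1, Usp18, Rsad2 and Psmb8 were at least 2-fold lower with an interval below 0, which is 4 of 34 genes, and 0 were higher. Over all 18787 genes with at least 10 reads the same rule called 2.2% lower and 1.21% higher. Log2 ratios lay below 0 for 23 of the 34 genes, beside 48.7% of all genes. The interval excluded 0 for 12 genes on the lower side, beside 15.5% of all genes, and for 1 gene, Ifit2, on the higher side, beside 17.0%. The median log2 ratio was -0.25 for the 34 genes and 0.01 for all genes compared. Summed over the list, 4913 reads in the cKO stood against 6067 in the control, a log2 ratio of -0.19 (-0.24 to -0.13).

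The calls lay where reads were few, and no called gene passes a minimum of 50 reads (0 of 25 genes, beside 1.17% of all). With 99% intervals Ifit1 alone remained, 1 gene of 34 beside 1.56%, and 5 intervals lay below 0, beside 10.4%. A 1.5-fold limit gave 7 genes, beside 3.92%, adding Bst2, Lgals3bp and Rtp4. Among the 9 genes with 10 to 49 reads over both libraries, 4 were lower, beside 6.32% of all genes of that depth. In the next class, with 50 to 199 reads, 0 of 13 genes were called lower, beside 3.75%. The deepest class, with at least 200 reads, had 0 of 12 genes called lower, beside 0.608%. The intervals, whatever the size of the ratio, lay below 0 for 4 of 9 genes in the shallowest class, beside 6.43%. In the middle class they did so for 2 of 13, beside 11.9%, and in the deepest for 6 of 12, beside 19.1%. Ratios of any certainty lay below 0 for 6 of the 12 deepest genes, beside 46.9% of all genes of that depth. The median log2 ratio was -0.65 in the shallowest class, -0.28 in the middle one and -0.07 in the deepest. All 34 genes passed the minimum of 10 reads, the scarcest being Zbp1 with 18 reads over both libraries and the most abundant B2m with 2747.

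**Figure D1:**
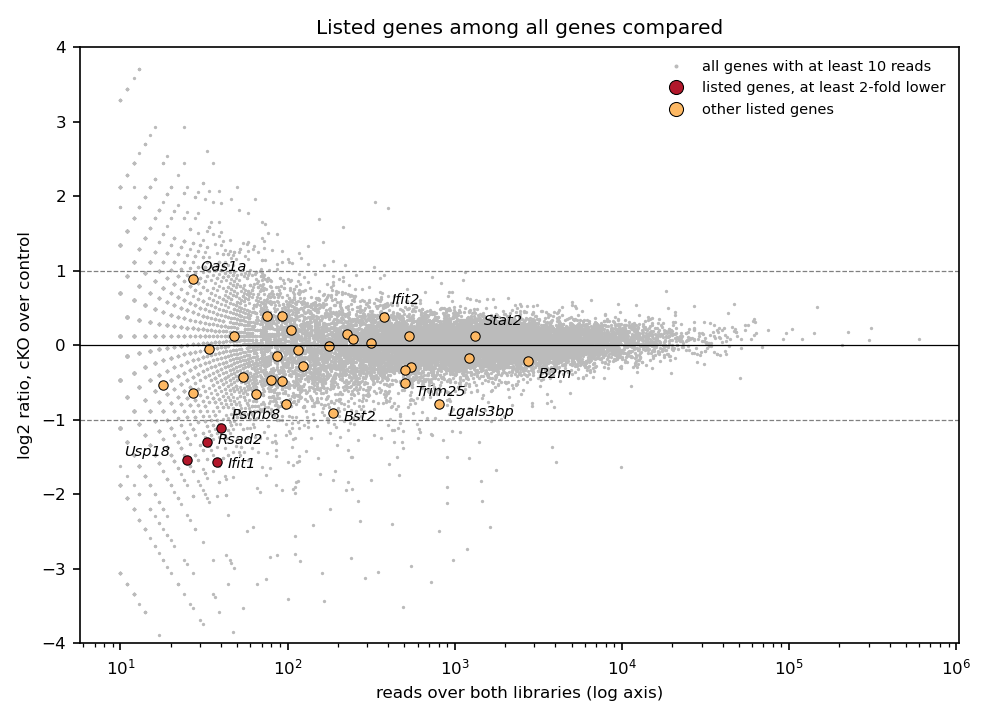
Log2 ratio of cKO over control against reads over both libraries (log axis) for genes with at least 10 reads, shown in grey, with the 34 listed genes in colour. The 4 red genes sit at the shallow left side, while B2m and Stat2 on the right lie close to 0. Dashed lines mark 2-fold, and 35 genes beyond a log2 ratio of 4 in size are not drawn.

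Levels were low for most of the list. The median gene stood at 3.0 CPM in the cKO and 3.11 CPM in the control. Below 1 CPM lay 8 genes in the cKO and 4 in the control, and above 10 CPM lay 9 in the cKO and 8 in the control. B2m alone gave 24.8% of the list's reads in the cKO and 25.2% in the control. Per kilobase of exon, which allows genes to be compared with each other, B2m was highest at 81.7 CPM in the cKO and 94.7 CPM in the control. Ifitm3 followed at 22.7 CPM per kilobase in the cKO and 20.7 in the control, then Tapbp at 8.72 in the cKO and 9.78 in the control. Ifi44 and Zbp1 were lowest, at 0.0942 and 0.115 in the cKO and 0.148 and 0.166 in the control. Lengths came from GENCODE vM21, a later annotation than the build behind the counts, so these levels are approximate.

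**Figure D2:**
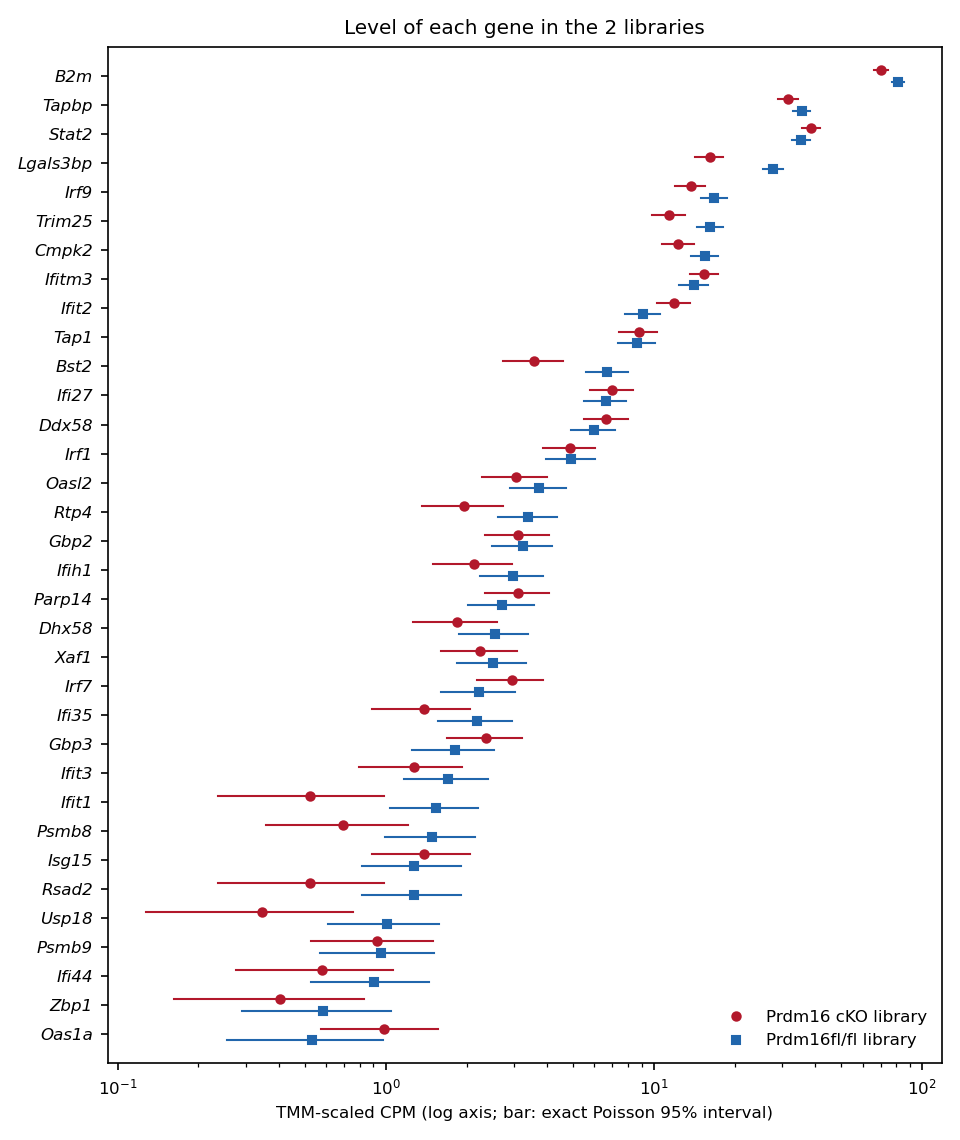
TMM-scaled level of each gene in CPM on a log axis, cKO as red circles and control as blue squares, with exact Poisson 95% intervals as bars. Genes run from B2m at the top (70.3 CPM in the cKO, 81.4 in the control) to Oas1a at the bottom (0.982 in the cKO, 0.532 in the control), and the bars widen as the levels fall.

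The promoter sequence of these genes was examined next, because it is what an interferon signal acts on. RefSeq promoter windows of build GRCm38.p6, from 250 bases before to 50 after each start, were at hand for 28 of the 34 genes. The search used the core of the response element, GAAA and GAAA with any 2 bases between them, on both strands (TTTC and TTTC on the other strand). It was found in 13 of the 28 genes, or 46.4%, and in 3.99% of all 27025 genes with a window. The stretches below are shown for the genes with a core before the start that the results turn on, 5′ to 3′ on the gene's own strand, with the core in capitals and neighbouring cores that overlap written as 1 run. Ifit1, Rsad2, Bst2 and B2m had intervals below 0 in the comparison, and Ifit3, Gbp2, Isg15 and Oas1a had intervals that held 0.
Ifit1 (chr19:34640765-34640833, + strand): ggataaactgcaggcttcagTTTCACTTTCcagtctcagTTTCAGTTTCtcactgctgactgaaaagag
Ifit3 (chr19:34583353-34583436, + strand): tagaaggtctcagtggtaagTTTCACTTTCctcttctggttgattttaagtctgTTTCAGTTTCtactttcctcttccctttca
Rsad2 (chr12:26456543-26456592, - strand): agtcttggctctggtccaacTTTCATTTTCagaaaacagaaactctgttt
Bst2 (chr8:71537567-71537622, - strand): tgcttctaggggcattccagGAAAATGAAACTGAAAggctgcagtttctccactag
B2m (chr2:122147528-122147577, + strand): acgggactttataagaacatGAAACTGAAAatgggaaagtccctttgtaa
Gbp2 (chr3:142620584-142620633, + strand): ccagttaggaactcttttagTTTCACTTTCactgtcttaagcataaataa
Isg15 (chr4:156200855-156200916, - strand): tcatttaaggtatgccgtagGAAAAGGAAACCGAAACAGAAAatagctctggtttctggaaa
Oas1a (chr5:120907526-120907565, - strand): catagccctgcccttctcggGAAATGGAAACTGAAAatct

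Genes with and without the core overlapped in their ratios. Of the 13 genes with a core, 7 had a log2 ratio below 0 and the median was -0.06, from -1.57 in Ifit1 to 0.88 in Oas1a. Of the 15 genes with a window and no core, 12 had a ratio below 0 and the median was -0.28. The gamma-activated site, known from interferon gamma responses, TTC and GAA with any 3 bases between them, was found in 7 of the 28 genes and in 9.55% of all genes. It lay in Irf1, Psmb8, Oas1a, Bst2, Ifi35, Ifit2 and Ifitm3. A match is a description of the letters, and its use in these cells was not measured.

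The IFIT genes, neighbours on chromosome 19 whose proteins bind viral RNA and block its translation, did not move as a unit. Ifit1 had 9 reads in the cKO and 29 in the control, or 0.520 CPM (0.238 to 0.986) against 1.54 CPM (1.03 to 2.22). Its log2 ratio of -1.57 (-2.83 to -0.45) was the lowest of the 34 and a 2.97-fold lower level. Ifit2 had 205 reads in the cKO and 171 in the control, or 11.8 CPM in the cKO against 9.10 in the control, a log2 ratio of 0.38 (0.08 to 0.68). Ifit2 was thus the one IFIT gene above the control, and its interval and that of Ifit1 do not overlap. Ifit3 lay between them at -0.42 (-1.28 to 0.41), with 22 cKO and 32 control reads. Ifit3 has a near-identical copy, Ifit3b, with 6 reads in the cKO and 11 in the control, and reads shared between the copies could be assigned to either.

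In the ISG15 system, Usp18 and Trim25 had intervals below 0 and Isg15 an interval that held 0. Isg15, a ubiquitin-like protein that is attached to other proteins, had 24 reads in each library, 1.39 CPM in the cKO and 1.28 CPM in the control. Its log2 ratio was 0.12 (-0.76 to 1.0). Usp18, the protease that removes Isg15 and restrains the interferon receptor, had 6 reads in the cKO and 19 in the control, a 2.92-fold lower level with a log2 ratio of -1.54 (-3.16 to -0.16). Trim25, a ubiquitin ligase that activates the sensor RIG-I, was better covered, with 197 reads in the cKO and 304 in the control, or 11.4 CPM in the cKO against 16.2 in the control. It stood at -0.51 (-0.77 to -0.24), lower but under 2-fold. Usp18 and Isg15 both react strongly to interferon, and the intervals of Usp18, Isg15 and Trim25 overlap.

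Of the 4 restriction factors and nucleotide enzymes, 3 had intervals below 0, beside 15.5% of all genes. Bst2, also known as tetherin, which holds budding virus at the cell surface, had 62 reads in the cKO and 126 in the control, or 3.58 CPM (2.74 to 4.59) against 6.70 CPM (5.58 to 7.98). Its level was thus 1.87-fold lower, at -0.91 (-1.37 to -0.46) on the log2 scale. Rsad2, or viperin, which makes a chain-terminating nucleotide, had 9 reads in the cKO and 24 in the control, a ratio of -1.30 (-2.59 to -0.14). Its neighbour on chromosome 12, the mitochondrial nucleotide kinase gene Cmpk2, stood at -0.33 (-0.59 to -0.07) with 213 cKO and 290 control reads. Both neighbours were lower, Rsad2 by the larger estimate, with intervals that overlap. Ifitm3, which blocks the fusion of virus with endosomes, did not differ beyond counting error, with 266 reads in the cKO and 264 in the control (0.13, -0.12 to 0.38).

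Among interferon-induced proteins of other kinds, Lgals3bp and Rtp4 were lower. Lgals3bp, a secreted glycoprotein that binds galectins, had 279 reads in the cKO and 522 in the control, or 16.1 CPM (14.3 to 18.1) against 27.8 CPM (25.4 to 30.3). Its log2 ratio of -0.79 (-1.0 to -0.57) had the narrowest interval of the ratios below -0.50. Rtp4, which helps receptors reach the membrane, had 34 cKO and 64 control reads, a ratio of -0.79 (-1.44 to -0.17). Ifi35 at -0.65 (-1.45 to 0.11) and Ifi44 at -0.65 (-1.94 to 0.56) had like estimates with intervals that held 0. The apoptosis-related gene Xaf1 at -0.15, Ifi27 at 0.08 and the ADP-ribosyltransferase gene Parp14 at 0.20 were nearest to the control. Together these 7 genes had 561 reads in the cKO and 866 in the control, a summed log2 ratio of -0.51 (-0.66 to -0.35), and Lgals3bp supplied most of that difference in reads.

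The transcription factors that carry the interferon signal were near the control level. Stat2, which joins Irf9 in the complex that binds the response element, had 666 reads in the cKO and 663 in the control, or 38.5 CPM in the cKO against 35.3 in the control. This gave 0.12 (-0.03 to 0.28) on the log2 scale. Irf9, the DNA-binding partner in that complex, had 237 reads in the cKO and 314 in the control and was slightly lower at -0.29 (-0.54 to -0.04). Irf1, a factor best known downstream of interferon gamma, had 84 cKO and 92 control reads and stood at -0.01 (-0.46 to 0.43). Irf7, which amplifies type I interferon production and is itself induced by it, had 51 reads in the cKO and 42 in the control and stood at 0.40 (-0.22 to 1.02). These 4 factors summed to 1038 reads in the cKO and 1111 in the control, a log2 ratio of 0.02 (-0.10 to 0.14).

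No sensor differed beyond counting error. Ddx58, which encodes the viral RNA sensor RIG-I, had 115 reads in the cKO and 112 in the control (0.16, -0.23 to 0.54). Ifih1, a sensor of long double-stranded RNA, had 37 cKO and 56 control reads (-0.48, -1.12 to 0.14). Dhx58, which modulates these sensors, had 32 cKO and 48 control reads (-0.47, -1.16 to 0.21), and Zbp1, a sensor of Z-form nucleic acid that can trigger necroptosis, had 7 cKO and 11 control reads (-0.53, -2.14 to 0.96). Thus 3 of the 4 sensors had estimates near -0.50, each from fewer than 100 reads. The 2'-5' oligoadenylate synthetase family, which makes the activator of RNase L, was as uncertain, and its members are close relatives that may share reads. Oas1a had 17 reads in the cKO and 10 in the control, the highest estimate of the list at 0.88 (-0.33 to 2.17), and Oasl2 had 53 cKO and 70 control reads (-0.28, -0.83 to 0.25). The guanylate-binding proteins, GTPases that attack the membranes around intracellular pathogens, summed to 95 reads in each library. Gbp2 stood at -0.06 (-0.61 to 0.49) and Gbp3 at 0.39 (-0.30 to 1.09).

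**Figure D3:**
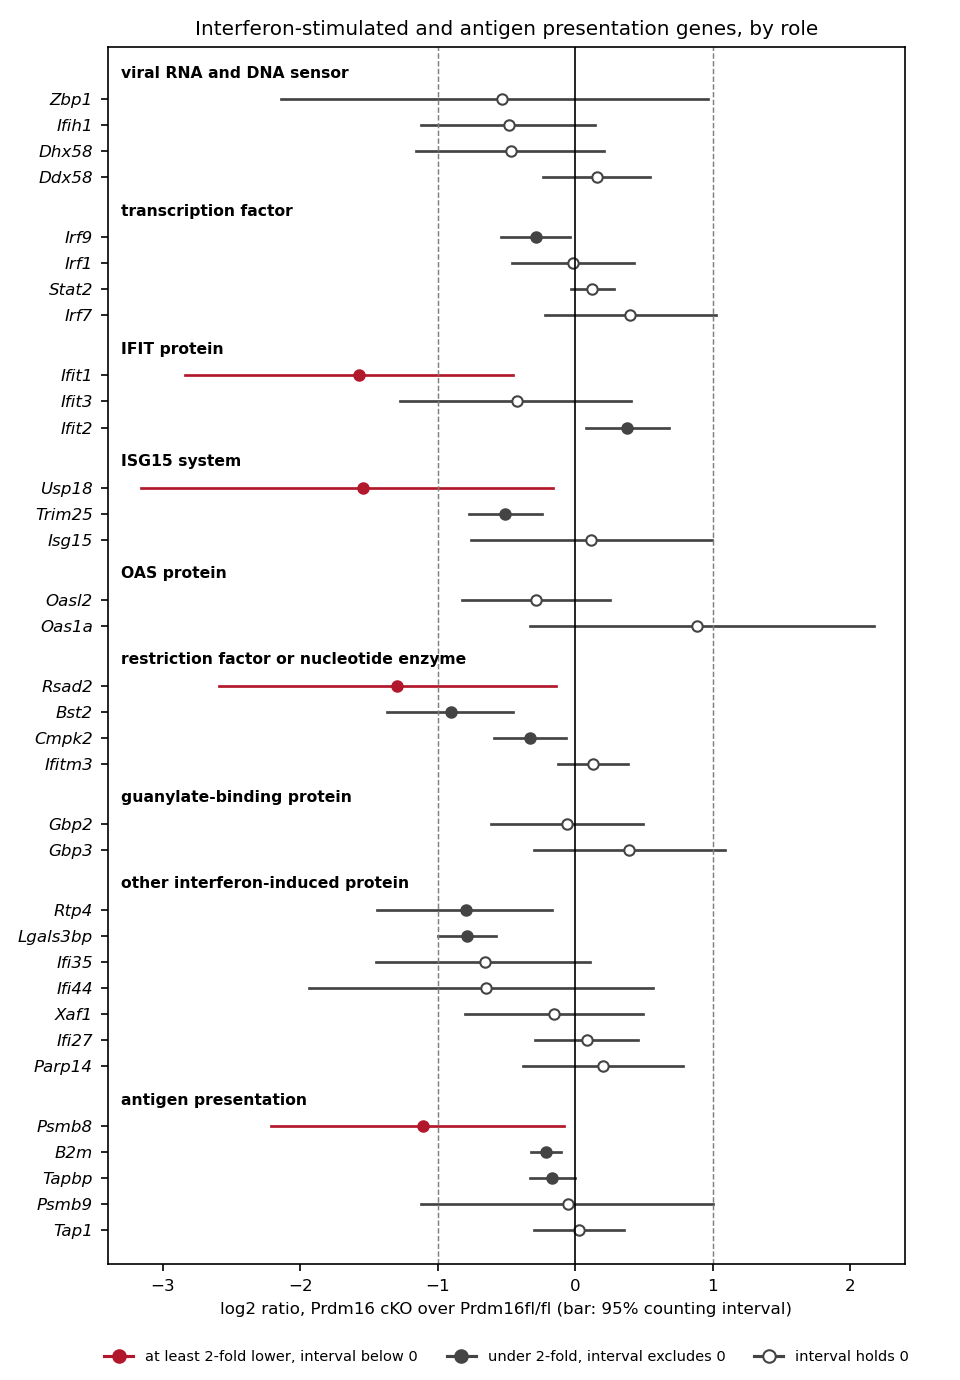
Log2 ratio of cKO over control for the 34 genes, grouped by role and ordered within each role, with 95% counting intervals as bars. The 4 red genes are Ifit1 (-1.57), Usp18 (-1.54), Rsad2 (-1.30) and Psmb8 (-1.10), filled grey points have an interval that excludes 0, and open points have an interval that holds it. Dashed lines mark 2-fold.

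The antigen presentation genes were lower by small amounts in the abundant members. B2m, the light chain of every MHC class I molecule, had 1217 reads in the cKO and 1530 in the control, or 70.3 CPM (66.4 to 74.3) against 81.4 CPM (77.4 to 85.6). That is a 1.16-fold lower level, with a log2 ratio of -0.21 (-0.32 to -0.10). Tapbp, or tapasin, which holds class I molecules at the peptide transporter, had 548 cKO and 667 control reads, and its interval of -0.33 to -0.00 only just excluded 0. Tap1, a subunit of that transporter, had 152 reads in the cKO and 162 in the control, which gives 0.03 (-0.30 to 0.35).

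The immunoproteasome subunits gave different estimates. Psmb8, which replaces the constitutive subunit Psmb5 under interferon, had 12 reads in the cKO and 28 in the control, or 0.693 CPM in the cKO against 1.49 in the control, a log2 ratio of -1.10 (-2.21 to -0.08). Psmb9, which replaces Psmb6, stood at -0.05 (-1.12 to 1.0) with 16 cKO and 18 control reads, and the intervals of the pair overlap. The constitutive subunits were far more abundant, with 574 reads for Psmb5 and 2285 for Psmb6 in the cKO against 627 and 2492 in the control. Of 14 constitutive core subunits 0 were called, beside 0.608% lower and 0.0649% higher among all genes with at least 200 reads. Their median log2 ratio was 0.09, from Psma5 (-0.05) to Psmb7 (0.23). The subunit intervals lay above 0 for 7, beside 22.7% of all genes of that depth, and below 0 for 0, beside 19.1%. The exons of Psmb8 overlap an antisense gene over 14.7% of their length and those of Tapbp over 24.9%, and strand use in counting is not given, so such reads could belong to either strand. The same holds for Ifi35, over 16.8% of its exons, and Rtp4 shares 13.9% of its exons with an annotated transcript on its own strand. Psmb9 and Tap1 run from a shared start region and overlap each other by 212 bases.

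The partners of these genes that were not on the list gave a mixed picture. Among 19 class I heavy chain and loading genes with at least 10 reads, 0 were called in either direction. The rule called 2.2% of all genes lower and 1.21% higher. The median log2 ratio of the 19 was -0.03. The intervals lay below 0 for 2 of the 19, beside 15.5% of all genes, and above 0 for 3, beside 17.0%. The classical heavy chains were at odds, with H2-K1 at 280 reads in the cKO and 415 in the control (-0.45, -0.67 to -0.23) and H2-D1 at 1288 cKO and 1304 control reads (0.10, -0.01 to 0.21), intervals that do not overlap. Heavy chain genes are close relatives, and how shared reads were assigned is not given. Tap2, the other transporter subunit, had 52 cKO and 35 control reads and the highest ratio of this list, 0.69 (0.04 to 1.35). MHC class II genes, which professional antigen-presenting cells express, included 2 of 8 that were higher by the 2-fold rule, beside 1.21% of all genes. They were H2-Aa with 19 reads in the cKO and 7 in the control (1.56, 0.25 to 3.05) and the invariant chain gene Cd74 with 45 cKO and 24 control reads (1.02, 0.28 to 1.80). Among all genes with 10 to 49 reads, the depth of H2-Aa, the rule called 4.6% higher. With 50 to 199 reads, the depth of Cd74, it called 1.74% higher. H2-Eb1, a chain of another class II molecule, stood at -0.28 (-1.09 to 0.51).

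Upstream of the list, the receptor and signalling genes were near the control level. The 13 interferon ligand genes searched for had no row in the table used here, which lists no gene with fewer than 2 reads over both libraries. Of 6 receptor genes 0 were called, beside 2.2% of all genes lower and 1.21% higher, with a median log2 ratio of -0.04. The receptor intervals lay below 0 for 0, beside 15.5% of all genes, and above 0 for 2, beside 17.0%. Ifnar1 had 1616 reads in the cKO and 1574 in the control (0.16, 0.06 to 0.26) and Ifnar2 had 303 cKO and 345 control reads (-0.07, -0.30 to 0.16). Il10rb, shared by the receptors for interferon lambda and some interleukins, was highest at 0.30 (0.00 to 0.60). Of 12 signalling genes 0 were called, beside the same shares, and the median was -0.01, from the feedback inhibitor Socs1 (-0.26) to Irf5 (0.48). The signalling intervals lay below 0 for 2, beside 15.5% of all genes, and above 0 for 1, beside 17.0%. Below were the kinase genes Jak1 (-0.15, -0.23 to -0.06) and Tyk2 (-0.23, -0.44 to -0.02), and above was Irf3 (0.23, 0.07 to 0.38). Of 13 nucleic acid sensing genes 0 were called, beside the same shares. The endosomal RNA receptor Tlr7 was lowest at -0.38 (-1.20 to 0.41) and Tmem173, the adaptor STING, highest at 0.71 (0.30 to 1.14). The reads of these sensing genes summed to a slightly lower level, a log2 ratio of -0.12 (-0.19 to -0.05). Traf3, with 1204 cKO and 1648 control reads (-0.33, -0.44 to -0.23), supplied most of that difference in reads. The intervals of the sensing genes lay below 0 for 2, beside 15.5% of all genes, and above 0 for 3, beside 17.0%.

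A wider list of interferon-stimulated genes gave values on both sides of the control. Of 61 such genes with at least 10 reads, 2 were lower by the 2-fold rule and 1 was higher, beside 2.2% and 1.21% of all genes. Ratios lay below 0 for 33, beside 48.7% of all genes, and the median was -0.08. The intervals lay below 0 for 6 of the 61, beside 15.5% of all genes, and above 0 for 9, beside 17.0%. Summed reads were 11206 in the cKO and 11684 in the control, a log2 ratio of 0.06 (0.02 to 0.10). Ly6e alone supplied 3587 of these reads in the cKO and 3430 in the control, and without it the sum stood at 0.00 (-0.04 to 0.05), a value added after seeing the data. The lower genes were the GTPase genes Iigp1, with 2 reads in the cKO and 20 in the control (-3.20, -6.35 to -1.16), and Gbp5, with 7 cKO and 19 control reads (-1.32, -2.82 to -0.01). The higher gene was Slfn2, a regulator of lymphocyte quiescence, with 39 cKO and 19 control reads (1.16, 0.33 to 2.03). Ifitm1, a relative of Ifitm3, was, at a minimum of 50 reads, the lowest, with 72 cKO and 131 control reads (-0.75, -1.18 to -0.32).

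**Figure D4:**
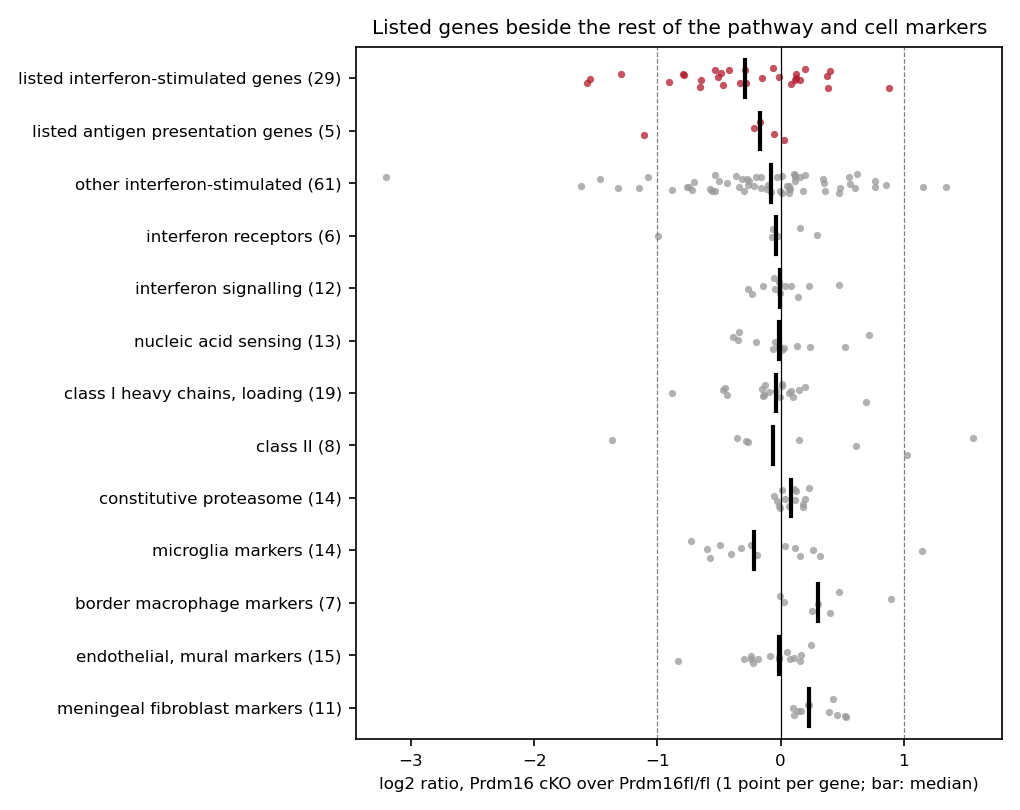
Log2 ratio of cKO over control for each gene with at least 10 reads, by list, with the number of genes in parentheses, the median as a black bar and dashed lines at 2-fold. The listed interferon-stimulated genes (median -0.29) and antigen presentation genes (-0.17) are in red. In grey are other interferon-stimulated genes (-0.08), the rest of the pathway and markers of microglia, border macrophages, vessel cells and meningeal fibroblasts. Not drawn are the marker lists of choroid plexus (median -4.68), lymphoid cells and neutrophils (0.77) and granule neuron progenitors (0.17).

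Markers of the cells that could carry these transcripts differed between the libraries, and their part in the values above was not tested. In bulk tissue, fewer cells of a type and less RNA per cell cannot be told apart. Of 14 microglia markers, the intervals lay below 0 for 5, beside 15.5% of all genes, and above 0 for 4, beside 17.0%. The microglia sum was 266 CPM in the cKO and 273 CPM in the control. Siglech was lowest at -0.73 (-1.42 to -0.06) and Aif1, with 47 cKO and 23 control reads, was called higher at 1.15 (0.40 to 1.94). Aif1 was the 1 microglia marker of 14 called higher, beside 1.21% of all genes. Border macrophage markers summed to 127 CPM in the cKO and 106 CPM in the control, from Ms4a7 at -0.00 to Cbr2 at 0.90. Endothelial and mural markers summed to 682 CPM in the cKO and 717 CPM in the control, with a median log2 ratio of -0.02. Their intervals lay below 0 for 5 of 15, beside 15.5% of all genes, and above 0 for 1, beside 17.0%. The transporter gene Slco1c1 was lowest at -0.83 (-0.98 to -0.68) and Mfsd2a highest at 0.25. Meningeal fibroblast markers summed to 3254 CPM in the cKO and 2723 CPM in the control, and all 11 lay above 0, from Igf2 (0.10) to Ptgds (0.53).

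Blood and choroid markers showed the wider differences. Neutrophil genes S100a8, with 31 reads in the cKO and 8 in the control (2.07, 0.92 to 3.40), and S100a9, with 71 cKO and 36 control reads (1.10, 0.50 to 1.72), were called higher. That is 2 of 4 lymphoid and neutrophil markers with at least 10 reads, beside 1.21% of all genes. The share was 4.6% at the depth of S100a8 (10 to 49 reads) and 1.74% at that of S100a9 (50 to 199). Ptprc, which encodes the leukocyte surface phosphatase CD45, had 64 cKO and 51 control reads (0.45, -0.11 to 1.01), and 5 of the 12 lymphoid and neutrophil markers had no row in the table used here. Of 13 choroid plexus markers, 12 were called lower, beside 2.2% of all genes. They were led by Ttr (-8.47), Slc4a5 (-7.55), Kcne2 (-5.69) and F5 (-5.02), and the remaining Otx2 stood at -0.87. None of the measured markers in these lists had 0 reads in either library.

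The authors' deposited table gave an adjusted p below 0.05 for 10 of the 34 genes, all lower in the cKO, beside 12.5% of all genes lower and 9.04% higher. With 1 column per genotype, such a p compares the libraries and not the genotypes.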

How the data were processed

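Cerebellar total RNA of 1 Prdm16 cKO and 1 Prdm16fl/fl sample was made into Illumina TruSeq libraries, per the labels' protocols. Per the submitters' processing notes, HTSeq 0.6.0, Bowtie2 2.2.3, TopHat2 2.0.12 and mm9 were used, in roles the notes do not give; strand use and pooling are not given in the sources used here. Raw read counts by gene, per the file headers, fill the deposited count columns. The deposited normalized values are CPM: within 0.0001 of their size, all 44846 were the count scaled by 1 factor for each column, and a count of 0 was set to 0.5. The deposited fold change, its log2 and the p-value and adjusted p columns are the authors', made with a tool not given in the sources used here.

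Counts were scaled by TMM in edgeR 4.0.16 under R 4.3.3, with factors of 0.990 for the cKO and 1.01 for the control. Ratios and figures were made in Python 3.11.15 with scipy 1.17.1, pandas 2.3.3, matplotlib 3.10.9 and numpy 2.4.6. Genes with 10 or more reads in total, 18787 of 22423, were compared. Calls needed a 2-fold ratio or more and a 95% interval, by the exact Clopper-Pearson method, that left out 0 on the log2 scale. Intervals treat reads as independent molecules, which reads without molecular identifiers are not, so they may be too narrow. The method was tested on simulated data. With 1 library per genotype no test was made. DESeq2 1.42.0 size factors, total reads, the deposited CPM scaling, other read minimums, fold limits and interval levels were the alternatives.

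The members and the gene lists were chosen with earlier results of these data known. Named were all 34 genes, and from each other list the called genes (up to 4) and the highest and lowest gene with at least 50 reads. Ifnar1, Jak1, Tyk2, Irf3, Traf3, H2-D1, Psmb5, Psmb6, Ifit3b, Ly6e and Xist were chosen after their values were seen. Promoter sequences were RefSeq's, build GRCm38.p6, and were used apart from the mm9 counts. Exon lengths and overlaps came from GENCODE vM21.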

Additional observations from a re-analysis of the deposited data

How the results depend on the processing

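The number of genes called lower depended on the rule. It was 4 by the 2-fold rule, 7 at 1.5-fold (beside 3.92% of all genes), 1 with 99% intervals, Ifit1 (beside 1.56%), and 0 with a minimum of 50 reads (beside 1.17%), which removes all 4 called genes. With 99% intervals, 5 intervals lay below 0 (beside 10.4%) and 0 above. At 1.5-fold the added genes were Bst2, Lgals3bp and Rtp4. Every called gene had under 50 reads over both libraries. Over 4 scalings no gene's log2 ratio moved by more than 0.03. That turned the sign of 2 values near 0 whose intervals held 0 with total reads and with the deposited scaling: Tap1 (0.03, then -0.00) and the summed transcription factors (0.02, then -0.01). With a minimum of 50 reads, 8 of 25 intervals lay below 0, against 12 of 34 without it. Over all genes the share was 11.9% with 50 to 199 reads and 19.1% with at least 200. The median log2 ratio ranged from -0.28 with total reads to -0.17 with a minimum of 50 reads. No paired analysis was possible because each genotype has 1 library, and no library could be left out for the same reason.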
